A study of Mus musculus with 4 samples.

Results

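The small bowel digests sugars at the surface of its absorptive cells and takes the products up through dedicated carriers, and 10 genes of this system were examined on 4 arrays of mouse colon epithelium. They were chosen by name: the disaccharidases Lct, Sis and Treh, the alkaline phosphatase Alpi, the sugar carriers Slc5a1, Slc2a2 and Slc2a5, the peptide carrier Slc15a1, and the fatty acid-binding proteins Fabp1 and Fabp2. Each of the 10 was read by 1 probe set of the Affymetrix Mouse Gene 1.0 ST array, out of 19946 genes with a probe set of their own symbol. Values are log2 of the deposited RMA intensities. A gene was counted as measured above a floor where its highest array reached a log2 intensity of 6, which 12527 genes did, and as called where a pair of arrays lay at least 2-fold apart.

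The samples were epithelial cells that EDTA had released from the colon of 6- to 8-week-old C57BL/6 mice. All mice, wild type included, had been given azoxymethane (10 mg/kg), a colon carcinogen, and after 5 days dextran sulfate sodium (3.5% in drinking water for 5 days), which injures the colonic lining, and were killed on day 12. There was 1 array each for Bmi1ΔIEC Mel18ΔIEC mice (DKO), for Bmi1ΔIEC mice, for Mel18ΔIEC mice and for WT mice, where ΔIEC stands for a deletion in intestinal epithelial cells and Bmi1 and Mel18 (gene symbol Pcgf2) encode related subunits of the chromatin repressor PRC1. The transgene that drove the deletion, the deleted exons and the number of mice behind each array are not stated in the labels used here. With 1 array a genotype there is no replicate check, so every difference below is a value with no test unless limma is named. So few arrays give these values little precision.

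In the mouse, disaccharidases and alkaline phosphatase sit in the brush border of villus enterocytes. Lactase (Lct) splits milk sugar, sucrase-isomaltase (Sis) splits sucrose and starch fragments, and trehalase (Treh) splits trehalose. Intestinal alkaline phosphatase (Alpi) removes phosphate from lipids and from bacterial lipopolysaccharide. SGLT1 (Slc5a1) brings glucose and galactose in with sodium, GLUT5 (Slc2a5) brings fructose in, GLUT2 (Slc2a2) lets these sugars out towards the blood, and PEPT1 (Slc15a1) takes up dipeptides and tripeptides with protons. FABP1 and FABP2 carry fatty acids in the cytoplasm. Most of this set marks the small bowel, with lower or no expression in the colon, and CDX, HNF4 and GATA factors are known regulators of several of its promoters.

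The sequences before the start sites of 4 of the genes are shown because Alpi was the member that differed most between the arrays, Slc15a1 came next among those above the floor, and Sis and Fabp1, which stayed dim, carry the largest numbers of the motifs searched. They are the 250 bases upstream of the RefSeq start on GRCm38.p6, 5′ to 3′ in the direction of the gene. Capitals mark matches on either strand to 4 short motifs. The letters searched were TATAAA for the core promoter element of that name, TTTAT for the core bound by CDX factors, GATAAG for the core bound by GATA factors, and CAAAGTC for the core bound by HNF4. The reverse complement of the CDX core lies within the first motif, so a match to the first is also counted for CDX.
Alpi (chr1:87101607-87101856, minus strand): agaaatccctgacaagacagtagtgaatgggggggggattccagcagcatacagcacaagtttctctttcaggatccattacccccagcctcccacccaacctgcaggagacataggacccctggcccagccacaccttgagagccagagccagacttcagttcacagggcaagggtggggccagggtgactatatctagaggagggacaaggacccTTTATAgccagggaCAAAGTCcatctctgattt
Slc15a1 (chr14:121505255-121505504, minus strand): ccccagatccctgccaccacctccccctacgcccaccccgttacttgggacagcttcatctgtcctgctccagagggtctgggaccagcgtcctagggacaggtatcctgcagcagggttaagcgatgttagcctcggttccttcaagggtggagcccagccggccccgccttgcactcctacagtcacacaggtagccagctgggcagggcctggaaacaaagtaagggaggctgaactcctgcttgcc
Sis (chr3:72967864-72968113, minus strand): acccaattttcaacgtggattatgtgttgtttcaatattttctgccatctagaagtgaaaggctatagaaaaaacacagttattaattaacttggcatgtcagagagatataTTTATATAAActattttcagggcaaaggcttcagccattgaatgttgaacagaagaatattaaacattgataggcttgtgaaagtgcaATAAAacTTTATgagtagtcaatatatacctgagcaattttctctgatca
Fabp1 (chr6:71199629-71199878, plus strand): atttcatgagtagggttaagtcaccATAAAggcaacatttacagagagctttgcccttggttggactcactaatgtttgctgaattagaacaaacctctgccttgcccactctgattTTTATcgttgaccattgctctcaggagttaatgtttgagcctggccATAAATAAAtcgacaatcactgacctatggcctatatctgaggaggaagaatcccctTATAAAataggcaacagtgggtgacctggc

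The Alpi window held a TATA box letter run, read on the reverse strand, at positions -33 to -28 from the start, and an HNF4 core at -19 to -13. The CDX core counted there at -33 to -29 is part of the same letters. The Slc15a1 window, with 62% G and C, held none of the 4 motifs. In Sis TATA box letters stood on both strands between -138 and -129, with 4 CDX cores in all. In Fabp1 the TATA box stood at -30 to -25, with 5 CDX cores in all. Over the 10 genes, 3 windows held a TATA box, 5 a CDX core, 1 a GATA core and 2 an HNF4 core. Among 21262 windows of the same length before protein-coding genes, the shares that held them were 11.6%, 33%, 6.25% and 3.65%. These matches describe letters in the windows and say nothing of binding.

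The arrays differed as a whole before any single gene is considered. Across the 12527 genes the DKO array correlated with the others at a Pearson r of 0.878 to 0.906, and the other pairs lay between 0.978 and 0.982. Seminal vesicle transcripts were present mainly on the WT array, with 7 of 7 such genes at or above the floor, against 0 on DKO, 2 on Bmi1ΔIEC and 0 on Mel18ΔIEC, so DKO is also set against the mean of both single deletions. From the scaled median absolute deviation of contrasts among the 4 arrays, the typical error of a difference of 2 arrays was put at 0.407. That value includes true differences and takes the error to be equal on all arrays. For single pairs the scaled median absolute deviation was 0.545 to 0.572 with DKO and 0.191 to 0.217 without it. The error of a DKO difference may therefore exceed 0.407. Bmi1 was not lower where the label states its deletion: it read 7.64 on DKO, 7.43 on Bmi1ΔIEC, 6.999 on Mel18ΔIEC and 7.25 on WT. Pcgf2 read 6.81, 6.72, 6.84 and 6.96 on the same arrays. Pcgf2 differed from WT by -0.15 on DKO and -0.13 on Mel18ΔIEC, and by -0.24 on Bmi1ΔIEC, where the label does not state its deletion. Probes outside the deleted exons would still bind, so these readings cannot check a genotype, and the genotypes below are those the labels state.

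Of the 10 genes, 4 passed the floor and 6 did not. Alpi, Slc5a1, Slc15a1 and Fabp2 were at or above 6 on each of the 4 arrays, so none of them passed through a single array. Lct, Sis, Treh, Slc2a2, Slc2a5 and Fabp1 stayed below it on each array. By highest array, the genes nearest to the floor were Slc2a5 (5.76), outside it, and Fabp2 (7.49), inside it. Alpi, at 6.01 on WT and 6.14 on Bmi1ΔIEC, was close to the floor on those arrays. As a rough yardstick for signal near background, 1015 olfactory receptor genes were used, most of them taken to be unexpressed in this tissue. From their 5th to their 95th percentile they lay between 3.10 and 5.55 on DKO and between 3.06 and 5.38 on WT. Lct, Sis, Treh, Slc2a2 and Fabp1 lay within that range on all 4 arrays. Slc2a5 lay within it on DKO and above it on the other 3 arrays. Probe sets differ in how strongly they bind, so this places a gene only roughly and ranks none against another.

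**Figure D1:**
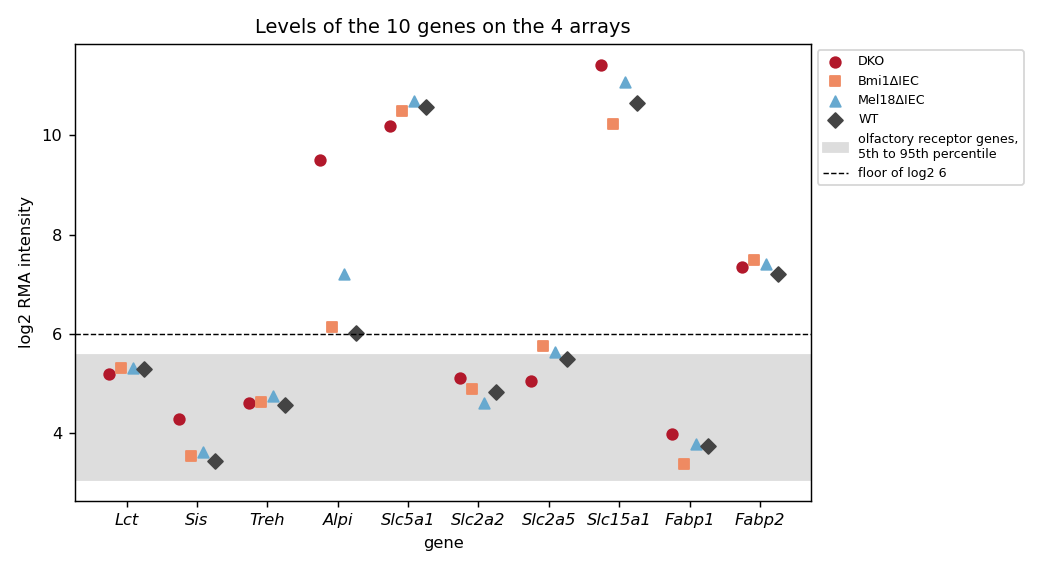
Log2 RMA intensity of each of the 10 genes on the 4 arrays, 1 point an array, with the floor of 6 as a dashed line and the 5th to 95th percentile of olfactory receptor genes in grey (lowest and highest bound over the arrays). Alpi reads 9.51 on DKO and between 6.01 and 7.20 on the other arrays, while 6 genes lie below the floor on all 4.

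Alpi was the member with the largest difference on the DKO array. It read a log2 intensity of 9.51 on DKO, 6.14 on Bmi1ΔIEC, 7.20 on Mel18ΔIEC and 6.01 on WT, which are linear intensities of 729, 70.4, 147 and 64.3. The DKO array was highest, Mel18ΔIEC next, and Bmi1ΔIEC and WT were 0.13 apart, less than the error of 0.407. DKO was 11.3-fold above WT (log2 difference 3.50), 10.4-fold above Bmi1ΔIEC (3.37) and 4.96-fold above Mel18ΔIEC (2.31). The WT and Bmi1ΔIEC values lay close to the floor of 6, so the folds over them are rough. With 32 added to the intensities, the log2 difference of DKO from WT was 2.98. Mel18ΔIEC was 2.29-fold above WT (1.19) and 2.09-fold above Bmi1ΔIEC (1.06). Counting Alpi itself, 14 of 12527 genes were as high or higher than Alpi in DKO minus WT, and 9 in Mel18ΔIEC minus WT. Its value lay 2.18 above the sum of both single deletions' differences, where 237 genes were as high or higher.

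The 3 other alkaline phosphatases did not follow it. Akp3, which in the mouse is a duodenal form, read 5.45 on DKO, 5.47 on Bmi1ΔIEC, 5.53 on Mel18ΔIEC and 5.41 on WT. Alpl, the tissue-nonspecific form, read 6.39, 6.25, 6.39 and 6.34 in the same order of arrays, and Alppl2, an embryonic form, read 5.33, 5.27, 5.31 and 5.31. Their differences of DKO from WT were 0.04, 0.05 and 0.01, although Akp3 and Alppl2 lay below the floor, where a change may not be seen.

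The 3 disaccharidases stayed below the floor on each array. Lct read 5.20 on DKO, 5.32 on Bmi1ΔIEC, 5.31 on Mel18ΔIEC and 5.30 on WT, a range of 0.13. Treh read 4.61, 4.63, 4.75 and 4.57 on the same arrays, a range of 0.18. Sis read 4.29 on DKO, 3.55 on Bmi1ΔIEC, 3.63 on Mel18ΔIEC and 3.45 on WT. DKO was the highest array for Sis, by 0.84 over WT, yet 40.9% of olfactory receptor genes had a highest array at or above that of Sis, so this difference is rough. Adding 32 to the intensities before the logarithm brought it to 0.26. Mgam, maltase-glucoamylase, the enzyme that works beside sucrase-isomaltase on starch fragments, was no such case: it read 12.21 on DKO, 11.62 on Bmi1ΔIEC, 11.76 on Mel18ΔIEC and 11.58 on WT, with DKO higher than WT by 0.63.

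The sugar carriers were level or dim. Slc5a1 read 10.18 on DKO, 10.48 on Bmi1ΔIEC, 10.70 on Mel18ΔIEC and 10.56 on WT. DKO was the lowest of the 4, by 0.38 against WT and 0.52 against Mel18ΔIEC. The first of these is within the error of a difference. The second is past that error but within the scaled median absolute deviation of DKO minus Mel18ΔIEC, 0.572. Slc2a5 read 5.06 on DKO, 5.76 on Bmi1ΔIEC, 5.64 on Mel18ΔIEC and 5.50 on WT, so DKO was lowest here as well, by 0.44 against WT. Slc2a2 read 5.12, 4.90, 4.62 and 4.84 on those arrays, with differences from WT of 0.28, 0.05 and -0.22.

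Among all 18 sodium-coupled and facilitative hexose transporter genes listed, 11 passed the floor. On DKO against WT, where 7.33% of all genes were called higher and 8.19% lower, 2 were at least 2-fold higher and 0 lower. These were Slc2a3 (GLUT3), which read 8.01 on DKO, 7.39 on Bmi1ΔIEC, 6.06 on Mel18ΔIEC and 6.70 on WT, and Slc2a6 (GLUT6), which read 8.86, 7.47, 6.85 and 7.29. Both are well known from white blood cells, and the neutrophil and macrophage markers given below were ordered in the same way over the arrays. Their part in these values was not tested. The ubiquitous glucose carrier Slc2a1 (GLUT1) read 12.71 on DKO, 12.18 on Bmi1ΔIEC, 12.27 on Mel18ΔIEC and 12.21 on WT. Slc5a9, a sodium-coupled carrier of mannose, read 9.58, 8.99, 9.58 and 9.67. The median difference of the 11 from WT on DKO was -0.09, against -0.05 over all genes, and it became 0.05 when arrays were centred on the genes above the floor. The remaining genes above the floor, Slc2a4, Slc2a8, Slc2a9, Slc2a10, Slc2a13 and Slc5a10, lay between -0.39 and 0.56. Slc5a2, Slc5a4a, Slc5a4b, Slc2a7 and Slc2a12 were below the floor, as Slc2a2 and Slc2a5 were.

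The peptide carrier was high on each array and varied within 1.20. Slc15a1 read 11.42 on DKO, 10.22 on Bmi1ΔIEC, 11.08 on Mel18ΔIEC and 10.64 on WT. DKO was highest, 1.72-fold above WT (log2 difference 0.78), 2.30-fold above Bmi1ΔIEC (1.20) and 1.27-fold above Mel18ΔIEC (0.35). Bmi1ΔIEC was lowest and differed from WT by -0.42, against 0.43 for Mel18ΔIEC, both just past the error of 0.407 and past the scaled median absolute deviations of those pairs, 0.191 and 0.217. Mel18ΔIEC stood 0.85 above Bmi1ΔIEC, with 44 of 12527 genes as high or higher in that difference. Of its relatives, Slc15a2 (PEPT2), the kidney-type carrier, read 4.98 on DKO, 5.73 on Bmi1ΔIEC, 6.57 on Mel18ΔIEC and 6.27 on WT. Slc15a3, a lysosomal carrier of immune cells, read 9.78, 8.36, 6.83 and 7.57.

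Of the fatty acid-binding proteins of the set, Fabp2 varied little and Fabp1 was dim. Fabp2 read 7.34 on DKO, 7.49 on Bmi1ΔIEC, 7.41 on Mel18ΔIEC and 7.21 on WT, a range of 0.28 with WT the lowest. Fabp1 read 3.99, 3.38, 3.78 and 3.75 on the same arrays, and 57.7% of olfactory receptor genes had a highest array at or above that of Fabp1. Among the other 7 genes of the family, Fabp6, the ileal bile acid-binding protein, was lowest on DKO, at 4.77, against 6.80 on Bmi1ΔIEC, 7.35 on Mel18ΔIEC and 5.93 on WT. Fabp4, of adipocytes, macrophages and endothelium, read 6.24 on DKO, 5.35 on Bmi1ΔIEC, 5.10 on Mel18ΔIEC and 4.98 on WT, and it passed the floor through DKO alone. Fabp5, the epidermal form, read 8.38, 7.55, 6.47 and 7.52. Fabp3, Fabp7, Fabp9 and Fabp12 lay below the floor on all arrays.

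The 10 genes were then set against all genes of the array. In DKO minus WT, 1 of the 4 genes above the floor was at least 2-fold higher and 0 lower, where 7.33% of all genes were higher and 8.19% lower. In Mel18ΔIEC minus WT the counts were also 1 and 0, against 0.144% and 0.814% of all genes, though 0 members were called with 32 added to the intensities, where Alpi gave 0.89. In Bmi1ΔIEC minus WT they were 0 and 0, against 0.551% and 0.359%. Against the mean of both single deletions, which leaves out the WT array, DKO had 1 member higher and 0 lower, where 7.33% and 6.51% of all genes were. In the departure from additivity 1 was above and 0 below, against 8.19% and 6.43%. In these comparisons the called member was Alpi, and between single arrays Slc15a1 also passed 2-fold, in DKO minus Bmi1ΔIEC. The median over all 10 was 0.18 in DKO minus WT, 0.06 in Bmi1ΔIEC minus WT and 0.16 in Mel18ΔIEC minus WT, against -0.05, -0.02 and 0.00 over all genes above the floor. Over the 4 members above the floor the medians were 0.45, 0.02 and 0.31. Within the error of 0.407 lay 6, 9 and 8 of the 10. The scaled median absolute deviation of the pair itself was 0.571 for DKO minus WT, 0.191 for Bmi1ΔIEC minus WT and 0.217 for Mel18ΔIEC minus WT, and 7, 6 and 7 of the 10 lay within it. These comparisons share the DKO or the WT array, so they do not support each other. The balance of all genes depended on the scaling: 918 were higher and 1026 lower in DKO minus WT. With arrays centred on the genes above the floor they were 1110 and 719, which put the median of all genes at 0.09. Median centring over all probe sets went the other way, to 825 and 1235.

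**Figure D2:**
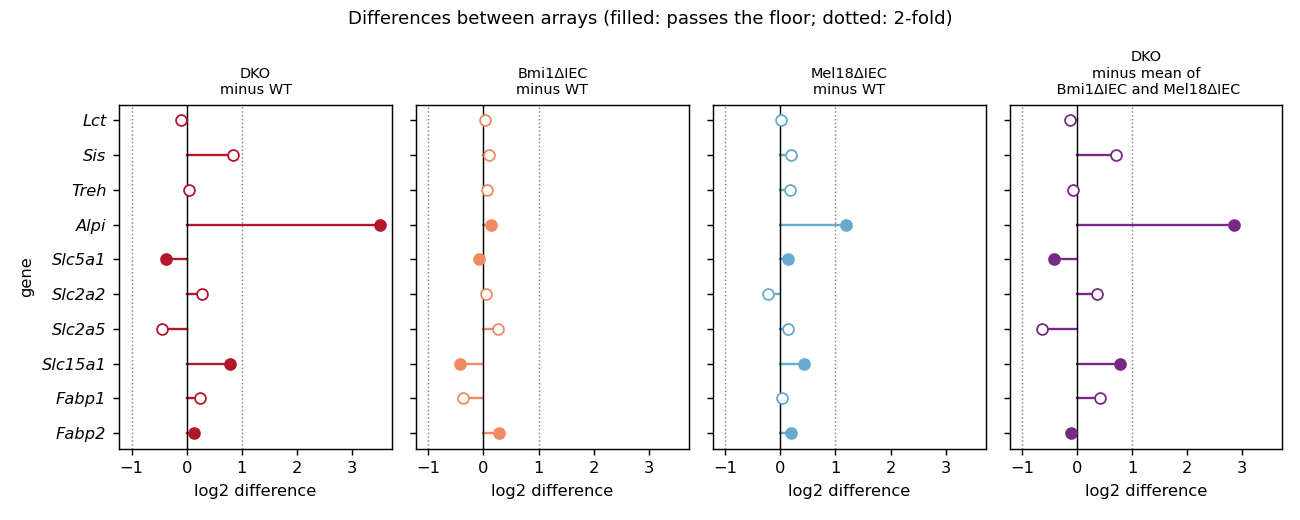
Log2 differences of the 10 genes, 1 panel a comparison, with filled points for the 4 genes above the floor and dotted lines at 2-fold in either direction. Only Alpi passes the dotted lines, at 3.50 in DKO minus WT, 1.19 in Mel18ΔIEC minus WT and 2.84 in DKO minus the mean of the single deletions.

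The 2 by 2 layout allows a test of the average change with each deletion, with both deletions as additive terms and 1 residual degree of freedom left. By limma with Benjamini-Hochberg adjustment over 12527 genes, 0 genes passed 0.05 for loss of Bmi1 and 0 for loss of Mel18 (0.0% of all genes in both), and 324 and 138 genes had an unadjusted p under 0.05. The fitted average difference of Alpi was 2.28 with loss of Mel18 (SE 0.593) and 1.22 with loss of Bmi1 (SE 0.593), with limma adjusted p-values of 0.952 and 0.849. That of Slc15a1 was 0.82 with loss of Mel18 (SE 0.292, limma adjusted p 0.952), and those of Slc5a1 and Fabp2 lay between -0.30 and 0.11 for both deletions. The interaction of the deletions is part of the residual in this model, so a gene with its largest departure on DKO has a large error by construction.

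Genes of fat handling and the brush border peptidases, which act on the same surface as the disaccharidases, were higher on DKO in most cases. Of 17 genes for dietary fat uptake and export above the floor, 12 were called higher in DKO minus WT and 0 lower, and their median difference was 1.26. Over all genes, 7.33% were called higher and 8.19% lower. One of the 12, Apoc3 (6.73 on DKO, 5.06 on Bmi1ΔIEC, 5.21 on Mel18ΔIEC, 5.47 on WT), passed the floor through DKO alone and so had to be higher there, and without it 11 of 16 were called, with a median of 1.24. Apoa1, an apolipoprotein of chylomicrons, read 11.73 on DKO, 6.40 on Bmi1ΔIEC, 6.56 on Mel18ΔIEC and 6.29 on WT. Mttp, which loads lipid onto apolipoprotein B, differed from WT on DKO by 3.22, Apob by 3.08, and the sterol half-transporters Abcg8 and Abcg5 by 3.06 and 2.53. Of 9 other brush border hydrolases above the floor, 6 were higher and 0 lower, and their median was 1.67. Enpep, a peptidase, likewise passed through DKO alone (9.64 on DKO, 5.19 on Bmi1ΔIEC, 5.81 on Mel18ΔIEC, 5.46 on WT), and without it 5 of 8 were called, with a median of 1.49. Naaladl1, another peptidase, differed by 4.36, and aminopeptidase N (Anpep) and the meprins Mep1a and Mep1b by 1.75, 1.69 and 1.67. Dpp4, another brush border peptidase, gave -0.21. Both lists were written with earlier results of these data known, which had shown several of these genes to be high on DKO.

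Other uptake genes were divided. Of 17 peptide and amino acid transporters above the floor, 4 were called higher in DKO minus WT and 2 lower, and their median difference was 0.07. The shares over all genes were 7.33% higher and 8.19% lower. The cystine and basic amino acid carrier Slc7a9 and its partner Slc3a1 read 9.84 and 8.61 on DKO, 7.17 and 5.76 on Bmi1ΔIEC, 8.42 and 7.21 on Mel18ΔIEC and 7.59 and 6.62 on WT. The others called were Slc15a3, described above, and the basolateral carrier Slc7a8 (1.15) as higher, and Slc15a2 and the glutamine carrier Slc1a5 (-1.13) as lower. Slc6a19, the main neutral amino acid carrier of the small bowel, stayed below the floor at 5.13, 4.64, 4.99 and 5.02. Of 16 vitamin, mineral and nucleoside uptake genes 4 were higher and 1 lower, with a median of 0.08. The 4 were the nucleoside carrier Slc28a2 (2.84), the phosphate carrier Slc34a2 (2.62), the calcium channel Trpv6 (2.61) and the calcium-binding protein S100g (1.12), and the lower gene was the folate carrier Slc19a1 (-1.42). Slc28a2 passed the floor through DKO alone, and without it 3 of 15 were higher. Of 5 genes above the floor for the use of fructose and other hexoses, 0 were called either way. Among them, ketohexokinase (Khk), which starts fructose breakdown, read 6.44 on DKO, 6.49 on Bmi1ΔIEC, 6.41 on Mel18ΔIEC and 6.31 on WT.

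**Figure D3:**
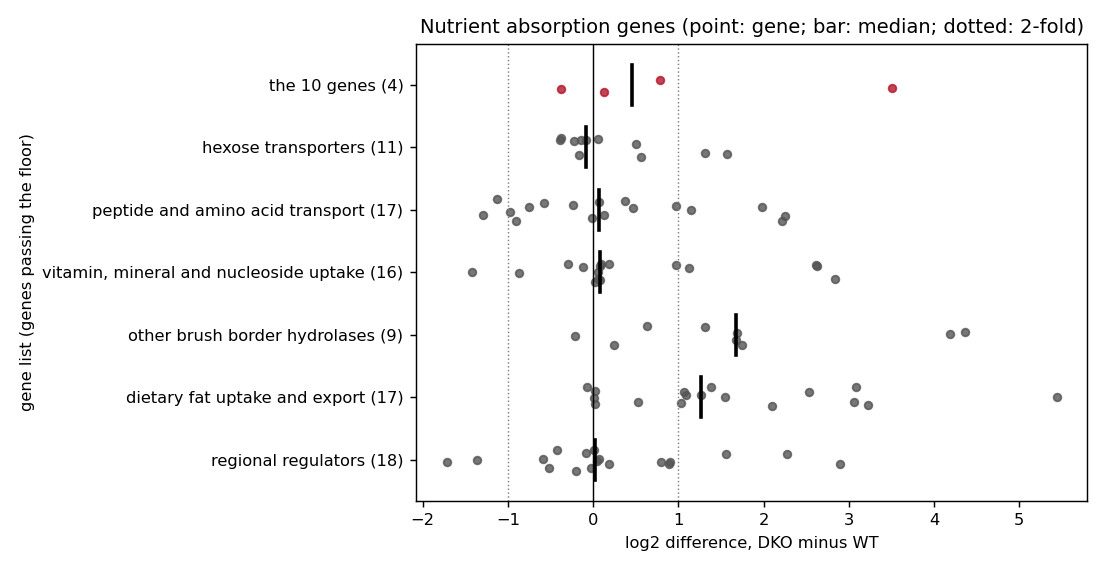
Log2 difference of DKO from WT for each gene above the floor in 7 lists, with a bar at each list's median and dotted lines at 2-fold. Medians are 1.67 for other brush border hydrolases and 1.26 for dietary fat genes, against 0.45 for the 4 measured members and -0.09 for hexose transporters.

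Of 18 regional regulators above the floor, 3 were called higher in DKO minus WT and 2 lower, against 7.33% and 8.19% of all genes. Gata4 differed most. Gata4, which maintains the jejunal program in mouse, read 8.93 on DKO, 6.46 on Bmi1ΔIEC, 6.17 on Mel18ΔIEC and 6.04 on WT. Creb3l3, a liver and small bowel regulator of lipid genes, read 8.55, 6.55, 6.72 and 6.28, and Prdm1, a repressor of adult enterocyte genes in the suckling mouse, read 9.25, 7.88, 8.23 and 7.69. Those were the 3 higher genes. With arrays centred on the genes above the floor, 5 were higher. The 2 lower ones were Cdx1 (8.21 on DKO, 9.40 on Bmi1ΔIEC, 9.57 on Mel18ΔIEC, 9.57 on WT) and the posterior Hox gene Hoxd13 (7.70, 9.11, 9.46 and 9.42). Hnf4a, Hnf4g, Gata6 and Mlxipl, which encodes the sugar sensor ChREBP, differed from WT on DKO by -0.02, 0.01, -0.09 and 0.07. Cdx2 gave -0.42, Gata5 0.90, Onecut2 0.80, Pdx1 0.89, Isx -0.59, Hoxb13 -0.52, Ppara -0.20, Klf4 0.04 and Nr1h4 0.19.

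The genes whose pattern over the 4 arrays was nearest to that of Alpi, by the distance between log2 profiles centred on their means, were Slc10a2 (0.40), Jchain (0.45), Abcg8 (0.53), Ly6d (0.56) and Slc34a2 (0.65). Slc10a2, the ileal bile acid carrier, read 9.82 on DKO, 6.93 on Bmi1ΔIEC, 7.69 on Mel18ΔIEC and 6.76 on WT. Jchain, the joining chain of secreted immunoglobulins made by plasma cells, read 9.15, 5.90, 7.08 and 6.24 on the same arrays. Nearest to Slc15a1 were Adtrp (0.13), Cdc42ep3 (0.14), Cda (0.16), Rhoc (0.18) and Iyd (0.19). With 4 arrays, such likeness describes these arrays and nothing more.

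**Figure D4:**
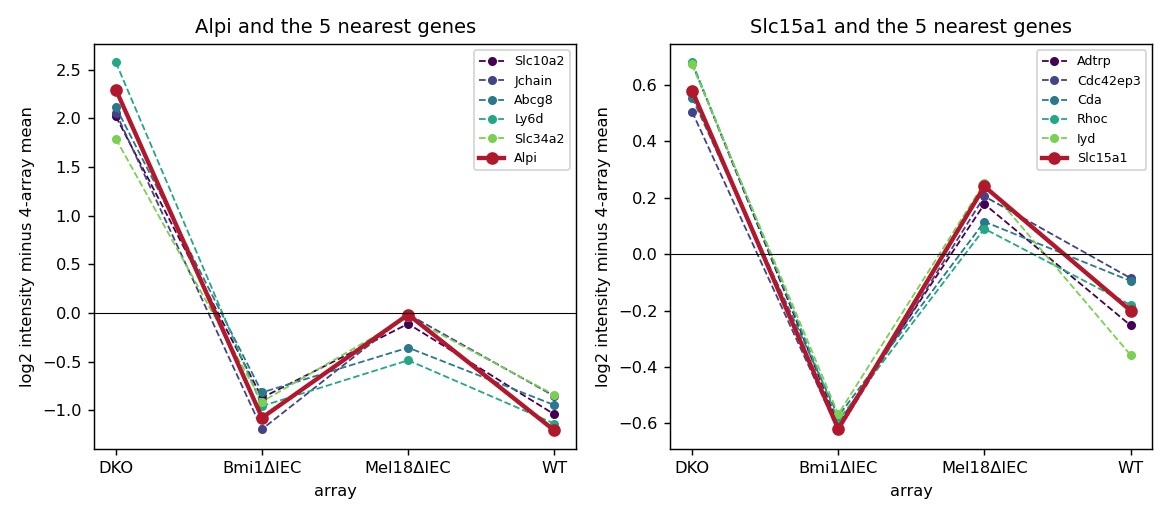
Log2 intensity minus the 4-array mean for Alpi and for Slc15a1 (thick red lines) with the 5 genes nearest to each (dashed), on the 4 arrays in the order DKO, Bmi1ΔIEC, Mel18ΔIEC, WT. Both sets peak on DKO, and both have Mel18ΔIEC above Bmi1ΔIEC.

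Some markers of other cells and of gut region also differed on the DKO array. Over all genes, 7.33% were called higher in DKO minus WT and 8.19% lower. The marker lists, too, were written with earlier results of these data known. Of 6 markers of small bowel enterocytes 5 were called higher in DKO minus WT, and their summed linear intensity was 5387 on DKO, 520 on Bmi1ΔIEC, 569 on Mel18ΔIEC and 637 on WT. Apoc3 is among the 5, and without it 4 of 5 were called. Rbp2, the retinol-binding protein of absorptive cells, was the one that was not (7.88, 7.22, 7.60 and 8.17). Apoa1, Apoa4, Apoc3 and Mttp also stand in the dietary fat list, Gata4 among the regulators and Rbp2 among the vitamin genes. Lct, Sis, Treh, Fabp1 and Slc6a19, other genes of the small bowel, stayed below the floor on each array. Of 6 colonocyte markers 3 were lower on DKO, namely Cyp2c55 (-3.57), the chloride exchanger Slc26a3 (-1.60) and the water channel Aqp8 (-1.38). The carbonic anhydrases Car1 and Car4 read 12.05 and 12.84 on DKO and 12.63 and 12.59 on WT, and Ceacam20 read 11.83 on DKO and 11.32 on WT. The 8 epithelial markers summed to 43458 on DKO, 42737 on Bmi1ΔIEC, 42918 on Mel18ΔIEC and 41419 on WT, and all 8 were above the floor on each array. Paneth cells, which mark the small bowel crypt, gave divided values over the 3 markers above the floor: Lyz1 and Mmp7 were higher on DKO than on WT by 1.61 and 1.96, and Ang4 was lower (5.89 on DKO, 6.12 on Bmi1ΔIEC, 6.83 on Mel18ΔIEC, 7.19 on WT). The defensin Defa24 lay below the floor on each array. Neutrophil markers were higher on DKO in 6 of 6 cases, summing to 17711 on DKO, 10206 on Bmi1ΔIEC, 1391 on Mel18ΔIEC and 4111 on WT. Macrophage markers were higher in 7 of 8 cases, summing to 7116, 2037, 1235 and 1633. Of 5 endothelial markers above the floor 3 were called higher, summing to 1072 on DKO, 475 on Bmi1ΔIEC, 325 on Mel18ΔIEC and 387 on WT, and 1 of the others, Kdr, passed through DKO alone. Of 5 fibroblast markers above the floor 1 was called higher, Dcn, by 1.68, and the list summed to 2638, 1760, 989 and 1156. Proliferation genes were lower on DKO in 10 of 11 cases. In such a mixed isolate, fewer cells of a type and less RNA per cell cannot be told apart, and the part of these shifts in the Alpi value was not tested.

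Alb, the defining transcript of liver, and Prss2 and Cpa1 of the exocrine pancreas lay below the floor on all 4 arrays, at 4.88, 5.52 and 5.30 on DKO. Ttr of the liver list was above it on each (8.36 on DKO, 8.64 on Bmi1ΔIEC, 8.57 on Mel18ΔIEC, 8.34 on WT), as was Cela1 of the pancreas list (7.29, 8.08, 8.41 and 8.39). Alpi was higher on Mel18ΔIEC than on WT, as was Jchain of plasma cells (7.08 against 6.24). The summed neutrophil and macrophage markers were lower on Mel18ΔIEC than on WT. The part of any of these cells in the Alpi value was not tested.

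**Figure D5:**
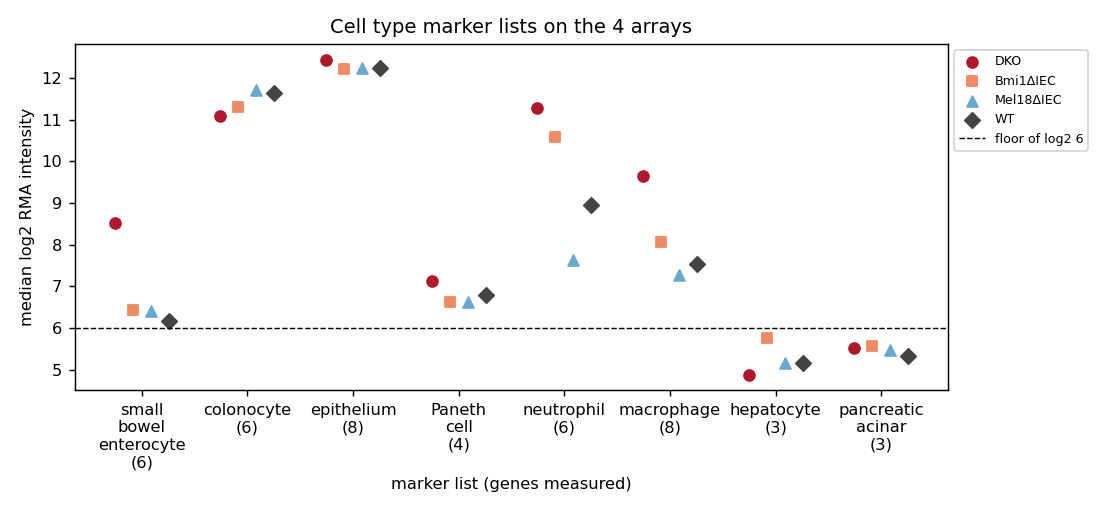
Median log2 intensity of 8 marker lists on the 4 arrays, with the number of genes measured under each name. Small bowel enterocyte markers have a median of 8.53 on DKO and between 6.17 and 6.44 on the other arrays, while epithelial markers lie between 12.21 and 12.44 on all 4.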

How the data were processed

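Gene expression was measured on 4 Affymetrix Mouse Gene 1.0 ST arrays, 1 a genotype, from total RNA of EDTA-released colon epithelium. The deposited intensities, on a linear scale from 4.70 to 13738 over 35556 probe sets, were produced by the authors in Affymetrix Expression Console using RMA, per the submitters' processing notes, which give no version. RMA puts the probe values of the arrays on 1 distribution, so a shift shared by most genes is largely removed before deposit. The deposited median intensities still ranged from 67.04 on Mel18ΔIEC to 72.96 on DKO. Intensities hold no counts of molecules, so signal over background and the number of arrays limit the precision.

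The platform annotation named the probe sets (21797 with 1 symbol, 1613 with several, 12146 with none), and the brightest set of a gene was used. Differences were taken on log2 intensities with a floor of 6 and a 2-fold call. The error scale was the smallest of 3 orthogonal contrasts (0.313, 0.296 and 0.288 for 1 array). True differences enter it, and it assumes equal error on all 4 arrays. limma 3.58.1 in R 4.3.3 (lmFit, eBayes) fitted additive deletion terms. The code was run once on simulated data: for loss of Bmi1, 100% of 200 genes changed 4-fold among 12527 were recovered. The simulated noise was smaller than the error scale of 1 array, and no interaction was simulated. That is an easier setting than the measured arrays. Recovery on the measured arrays, or for genes that differ on DKO alone, was not tested. Other work used Python 3.11.15, numpy 2.4.6 and pandas 2.3.3. Promoters came from RefSeq (GRCm38.p6), where all 10 genes matched.

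Members and lists were chosen with earlier results of these data known. Besides the 10 members, the text names up to 6 genes a list with the largest DKO minus WT difference, all genes of the alkaline phosphatase, FABP and hexose transporter families and of the regulators, the 5 genes nearest to each of 2 members, and markers. Mgam, Dpp4, Slc6a19 and the comparison of Mel18ΔIEC with Bmi1ΔIEC fall outside this rule: they were added with their values in view. Alternatives were no floor, a floor of 8, cyclic loess, 2 ways of median centring, a pseudocount of 32, calls at 1.5-fold and 3-fold, averaging a gene's probe sets and an eBayes trend.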

Additional observations from a re-analysis of the deposited data

Results flagged for a closer look

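With 1 array a genotype, no array could be compared with others of its group. Among the 4 members above the floor, 3 moved in opposite directions with the same deletion in the presence and in the absence of the other, and these differences were not tested. With loss of Bmi1, Slc15a1 gave 0.35 where Mel18 was also deleted (DKO minus Mel18ΔIEC) and -0.42 where it was not (Bmi1ΔIEC minus WT). Fabp2 gave -0.06 and 0.28 for the same pair of comparisons. With loss of Mel18, Slc5a1 gave -0.30 where Bmi1 was also deleted (DKO minus Bmi1ΔIEC) and 0.14 where it was not (Mel18ΔIEC minus WT), and Fabp2 gave -0.15 and 0.19. Of these 8 values, the Slc15a1 value of -0.42 alone exceeds the error of 0.407 for a difference of 2 arrays, and the Fabp2 value of 0.28 also exceeds the 0.191 that Bmi1ΔIEC minus WT gave over all genes.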

How the results depend on the processing

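Alpi kept its direction in DKO minus WT under the 5 scalings and summaries tried, between 2.98 and 3.65. Its 2-fold call in Mel18ΔIEC minus WT was lost with a pseudocount of 32 and at 3-fold, where 0 members were called higher. At 1.5-fold, 2 members were higher in DKO minus WT, in DKO minus the mean of the single deletions and in the departure from additivity, the second being Slc15a1. No other count of called members moved, including those by limma, which stayed at 0 in each setting. Of 250 recomputed member differences, 3 moved by more than the error scale, all with the pseudocount: Alpi to 2.98 and Sis to 0.26 in DKO minus WT, and Sis to 0.23 against the mean of the single deletions. The signs of Lct and Treh in DKO minus WT depended on the scaling (-0.18 to 0.04 and -0.03 to 0.19).

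Over all genes, the split of 918 higher and 1026 lower in DKO minus WT became 1020 and 794 after cyclic loess and 1110 and 719 when centred on the genes above the floor, a choice made after seeing the data. Those 2 settings gave 1046 and 555, and 1082 and 559, against the mean of the single deletions (918 and 816 as reported), and 1201 and 521, and 1189 and 584, in the departure from additivity (1026 and 805). Median centring moved the split the other way, to 825 higher and 1235 lower in DKO minus WT. It gave 844 and 967 against the single deletions and 950 and 904 in the departure from additivity. The pseudocount left 542 lower against the single deletions. In Bmi1ΔIEC minus WT, 69 higher and 45 lower became 44 and 52 after median centring, and 40 were higher with the pseudocount. In Mel18ΔIEC minus WT, 18 higher became 8 with a floor of 8 or the pseudocount, which left 62 of 102 lower. At 1.5-fold the splits were 1794 and 2524 (DKO minus WT), 253 and 192 (Bmi1ΔIEC minus WT), 149 and 294 (Mel18ΔIEC minus WT), 1757 and 2358 (against the single deletions) and 1926 and 2392 (additivity). At 3-fold they were 432 and 198, 13 and 18, 5 and 37, 423 and 109, and 470 and 129 in that order. Among amino acid transporters the 4 higher and 2 lower genes became 4 and 1 after cyclic loess, 4 and 3 after median centring, and 5 and 1 when centred on the genes above the floor. The 12 dietary fat genes called higher became 10 after median centring, and the 4 vitamin, mineral and nucleoside genes became 5 after cyclic loess or when centred on the genes above the floor. The counts without genes that passed through DKO alone were added after seeing the data. No paired analysis was possible because each genotype has 1 array. Dim probe sets limit the reading of 6 of the 10 genes: a low level of Lct, Sis, Treh, Slc2a2 or Fabp1 RNA could not be seen over background, and Slc2a5 lay close to it.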
